A study of Bos taurus with 20 samples.

Results

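Immediate early genes are the genes that a cell switches on first after a stimulus, without having to make new protein. Growth factors, cytokines, stress and calcium signals reach them through MAP kinases and through factors such as SRF, the ELK proteins and CREB, and their short-lived mRNAs make their level a readout of recent signalling. In blood they are known to respond to activation of leukocytes and to the handling of a sample after it is drawn. The 10 genes described here were taken as a list of cattle symbols and matched to the Entrez identifiers of the count files with the NCBI cattle gene table. They were FOS, FOSB, JUN, JUNB, JUND, EGR1, EGR2, ATF3, DUSP1 and IER2. All 10 were found among the 37063 genes listed, and all 10 passed the count filter (10 counts or more in 5 or more cows) that left 16206 genes to test.

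Blood was drawn from the tail vein of 20 pregnant recipient cows at day 63 of gestation into tubes that lyse the cells and stabilize their RNA, and 1 library was sequenced per cow. Every cow carried a female beef fetus from an in vitro-produced embryo made with X-sorted semen. The methods of the study call the recipients lactating dairy cows, while its overview of data sets lists them as Angus of mixed ages, and the single ages were not used here. All cows belonged to 1 condition without a nonpregnant control. Calf birth weight (BW) was the only variable used here, so each cow is named by the BW of its calf. The study also considered dam parity, assistance at calving and fetal diameters at day 63, which were not used here. No sample taken before handling, and no second sample of a cow, was analysed here, so the level of these genes in the circulation and a change made during sampling cannot be told apart.

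Total counts per cow lay between 24632077 and 39892111, and the chi-square per degree of freedom between any 2 libraries was at least 12.6, so no library was a repeat of another. Defining markers of leukocytes and platelets were present in every cow. The summed level of the markers tested ranged from 2447 to 4219 CPM (library-scaled counts, with TMM factors) for 6 of 7 neutrophil genes and from 1450 to 3372 CPM for 5 of 5 monocyte genes. It ranged from 483 to 758 CPM for 5 T cell genes, from 481 to 875 CPM for 4 B cell genes, from 113 to 241 CPM for 4 natural killer (NK) cell genes and from 457 to 1425 CPM for 5 platelet genes. The 4 erythroid genes summed to between 53.2 and 1094 CPM, with HBA and SLC4A1 at 0 in at least 1 cow. Of 4 eosinophil genes only IL5RA could be tested, at 20.2 to 200 CPM, so no eosinophil score was made. In whole blood, fewer cells of a type and less RNA per cell cannot be told apart.

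FOS (Entrez 280795) and FOSB (Entrez 540819) encode leucine zipper proteins that bind DNA in pairs, typically with a JUN protein, as the transcription factor AP-1. The level of FOS was 9.50 CPM in the lowest cow, 19.8 CPM at the median and 41.4 CPM in the highest, a 4.36-fold range and the widest of the 10 genes. Its mean was 19.9 ± 7.52 CPM (SD, n = 20). The highest level belonged to the cow with the 43 kg calf and the next, 32.4 CPM, to that of the 38 kg calf, whereas the cow with the 46 kg calf was lowest. FOSB, the member with the fewest reads, had a lowest level of 1.70 CPM in the cow of the 35 kg calf, a median of 3.24 CPM and a highest level of 5.44 CPM in the cow of the 56 kg calf. Its mean was 3.46 ± 1.08 CPM (SD, n = 20), and as few as 50 reads were counted in 1 cow, where counting error alone has a coefficient of variation (CV) of 14.1%.

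The JUN proteins are the partners that complete AP-1, and they also pair with each other. JUN (Entrez 280831) lay between 99.4 CPM (the cow of the 46 kg calf) and 165 CPM (that of the 37 kg calf), with a median of 130 CPM and a mean of 129 ± 18.2 CPM (SD, n = 20). JUNB (Entrez 514246), which can oppose JUN at many target genes, had its lowest level, 114 CPM, in the cow of the 56 kg calf, a median of 146 CPM and its highest level, 176 CPM, in the cow of the 54 kg calf. JUND (Entrez 517192) is known for its presence in resting cells. Its lowest level was 168 CPM (the cow of the 41.5 kg calf), its median 216 CPM and its highest 253 CPM (that of the 43 kg calf), with a CV of 10.3%. The 3 JUN genes therefore varied by 1.51-fold to 1.66-fold between the lowest and the highest cow, a narrower range than that of either FOS gene.

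EGR1 (Entrez 407125) and EGR2 (Entrez 100297981) encode zinc finger transcription factors that bind GC-rich DNA. The lowest level of EGR1, 2.32 CPM, and that of EGR2, 5.73 CPM, were both in the cow of the 35 kg calf, with that of the 36 kg calf next lowest for both. The median of EGR1 was 3.84 CPM and its highest level was 6.05 CPM, in the cow of the 47.4 kg calf. For EGR2 the median was 10 CPM and the highest level 16.6 CPM, in the cow of the 49.5 kg calf. ATF3 (Entrez 515266), a leucine zipper factor of the stress response that often represses its targets, lay between 7.40 CPM (the cow of the 49.5 kg calf) and 14.97 CPM (that of the 54 kg calf), with a median of 10.1 CPM.

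DUSP1 (Entrez 539175) is a phosphatase that switches off the MAP kinases and so ends the signal that induced it. Its lowest level was 49.1 CPM (the cow of the 41.5 kg calf), its median 69.3 CPM and its highest 117 CPM (that of the 56 kg calf), and its mean was 72.5 ± 17.5 CPM (SD, n = 20). IER2 (Entrez 525380), a short-lived nuclear protein, varied least of the 10 genes. It lay between 123 CPM (the cow of the 38 kg calf) and 173 CPM (that of the 30 kg calf), with a median of 151 CPM and a CV of 10.02%. These levels are in CPM and are not corrected for length of transcript, because no transcript length of the build used by the authors was at hand, so the 10 genes were not ranked by abundance.

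**Figure D1:**
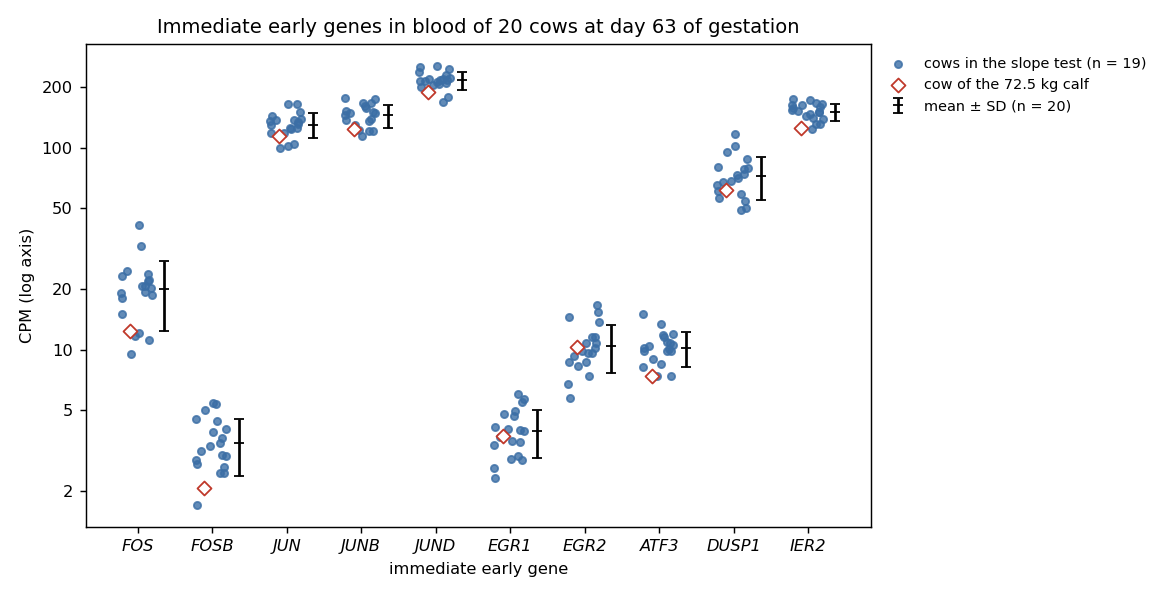
Level of each immediate early gene in CPM on a log axis, with 1 point per cow, the cow of the 72.5 kg calf as an open diamond, and bars for the mean ± SD over 20 cows. FOS spreads from 9.50 to 41.4 CPM, whereas IER2 stays between 123 and 173 CPM.

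All 10 genes varied more between cows than the typical gene of like abundance. For FOS the CV was 37.9%, against a median of 11.1% over the 2079 genes whose mean CPM lay within 0.5 log2 units of its own, and 96.7% of those genes had a lower CV. DUSP1 had a CV of 24.1%, against a median of 8.49% over 1886 genes, 95.1% of them with a lower CV. EGR2 came next, with 26.9% against 14.2%. For the other 7 genes between 66.8% and 83.9% of the genes of like abundance had a lower CV. These values are descriptions and were not tested.

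The cows differed in how many of the genes were high together. The cow of the 50 kg calf was above the mean of the 20 cows for all 10 genes, and the cows with the 43 kg and 37 kg calves for 9 each. By contrast, the cow of the 72.5 kg calf was above the mean for 1 gene only, EGR2, and the cows with the 45, 49.5 and 56 kg calves for 2 each. The mean z-score over the 10 genes was highest in the cow of the 43 kg calf, at 1.16, and lowest in that of the 72.5 kg calf, at -0.97. Total counts in these 2 cows were 36052997 and 29346909.

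**Figure D2:**
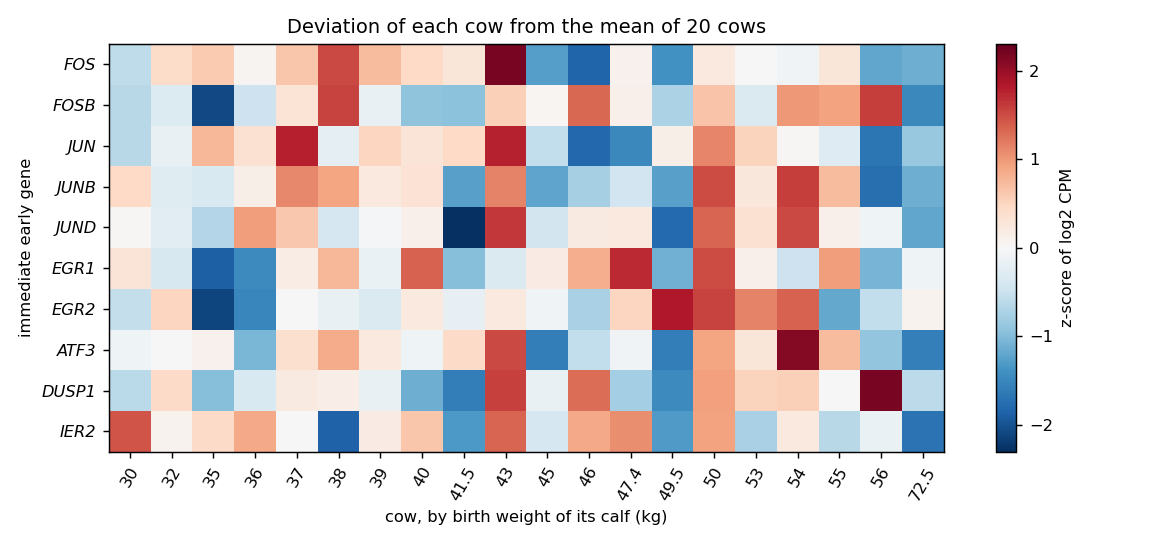
z-score of log2 CPM for each immediate early gene (vertical axis) in each cow (horizontal axis, ordered by the BW of its calf in kg), red above and blue below the mean of 20 cows. The column of the 50 kg calf is red for all 10 genes, and that of the 56 kg calf is dark red for DUSP1 and FOSB and dark blue for JUN and JUNB.

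The next question was whether the genes varied together across cows, and their 45 pairs were compared by the correlation of log2 CPM over the 20 cows. The median Pearson correlation of the pairs was 0.27, beside -0.0018 over all 131309115 pairs of genes tested, and 40 of the 45 pairs were positive. With a two-sided permutation test of 100000 resamples and Benjamini-Hochberg adjustment over the 45 pairs, 9 pairs were called at 0.05 and all 9 were positive. The weakest of them had a Pearson correlation of 0.58, a size that 3.11% of all gene pairs reached in either direction and 1.71% in the positive direction. With Spearman's correlation 6 pairs were called, all of them among the 9. The first principal component of the 10 genes held 39.1% of their variance and the second 21.1%, so the list did not vary as a single block.

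A group of genes around JUNB varied together. JUNB and ATF3 had the highest correlation of the 45 pairs, with a Pearson r of 0.80 (permutation p = 2e-05, adjusted 0.0009) and a Spearman rho of 0.77 (permutation p = 0.00011, adjusted 0.00247). Without the 2 cows whose JUNB lay farthest from the median, r was 0.77. By its correlation with ATF3, JUNB ranked 6 among all genes tested, whereas ATF3 ranked 57 by its correlation with JUNB. FOS was correlated with ATF3 (r = 0.71, permutation p = 0.00056, adjusted 0.0063; rho = 0.64, permutation p = 0.00291, adjusted 0.0324), with JUN (r = 0.68, permutation p = 0.00096, adjusted 0.00742; rho = 0.63, permutation p = 0.00432, adjusted 0.0324) and with JUNB (r = 0.65, permutation p = 0.00196, adjusted 0.0126; rho = 0.55, permutation p = 0.0130, adjusted 0.0733). FOS was most extreme in the cows with the 43 kg and 46 kg calves, and without them r was 0.68 with ATF3, 0.49 with JUN (permutation p = 0.0380) and 0.62 with JUNB. JUN and JUNB had the weakest correlation called (r = 0.58, permutation p = 0.0078, adjusted 0.0390; rho = 0.48, permutation p = 0.0335, adjusted 0.151). Without the cows with the 46 kg and 56 kg calves it was 0.46 (permutation p = 0.0539), so this relation rests on those cows. JUN and ATF3 were not called (r = 0.47, permutation p = 0.0368, adjusted 0.138, and rho = 0.51, permutation p = 0.0231, adjusted 0.115), so 5 of the 6 pairs among FOS, JUN, JUNB and ATF3 were.

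JUND stood between this group and others. Its correlation with JUNB was 0.74 (permutation p = 0.00016, adjusted 0.0036; rho = 0.72, permutation p = 0.00058, adjusted 0.0087), and 0.77 without the cows with the 49.5 kg and 56 kg calves. With IER2 it was 0.67 (permutation p = 0.00099, adjusted 0.00742; rho = 0.63, permutation p = 0.00362, adjusted 0.0324), and 0.56 without the cows with the 41.5 kg and 49.5 kg calves. JUND and DUSP1 had an r of 0.62 (permutation p = 0.00331, adjusted 0.0186; rho = 0.57, permutation p = 0.0102, adjusted 0.0659), which was 0.43 without the same 2 cows (permutation p = 0.0776) and so rests on them.

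FOSB had its highest correlation in the list with DUSP1. FOSB and DUSP1 had an r of 0.75 (permutation p = 0.00024, adjusted 0.0036; rho = 0.79, permutation p = 7e-05, adjusted 0.00247), and only 1 other gene of all those tested had a higher correlation with FOSB. In the other direction, FOSB ranked 230 among all genes tested by its correlation with DUSP1. Apart from this pair and JUNB with ATF3, the pairs called had ranks from 61 (FOS with ATF3) to 760 (JUN with JUNB). The r of FOSB and DUSP1 was 0.69 without the cows with the 35 kg and 56 kg calves, and between 0.70 and 0.79 when single cows were left out. FOS and FOSB, the 2 members of the FOS family, had an r of 0.031 (permutation p = 0.898), FOS and DUSP1 one of 0.038 (permutation p = 0.877), and FOSB and JUN one of -0.24 (permutation p = 0.300). The cow of the 56 kg calf had the highest FOSB and DUSP1 and the lowest JUNB of all cows, and the correlations of FOSB moved without it. FOSB with JUN was -0.11 when it was left out, and -0.030 when the cow of the 35 kg calf was left out too (permutation p = 0.906). Without both of these cows, FOSB with JUNB went from 0.29 to 0.55 (permutation p = 0.0204) and FOSB with ATF3 from 0.35 to 0.56 (permutation p = 0.0150), while FOSB with FOS was 0.13 without the 2 cows most extreme in FOS. EGR1 and EGR2 were called with no other gene of the list, and with each other r was 0.29 (permutation p = 0.207, adjusted 0.482). That value fell to 0.096 once the cow of the 35 kg calf was left out, and reached 0.47 once that of the 49.5 kg calf was. Whether the correlations called differ from those not called was not tested.

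**Figure D3:**
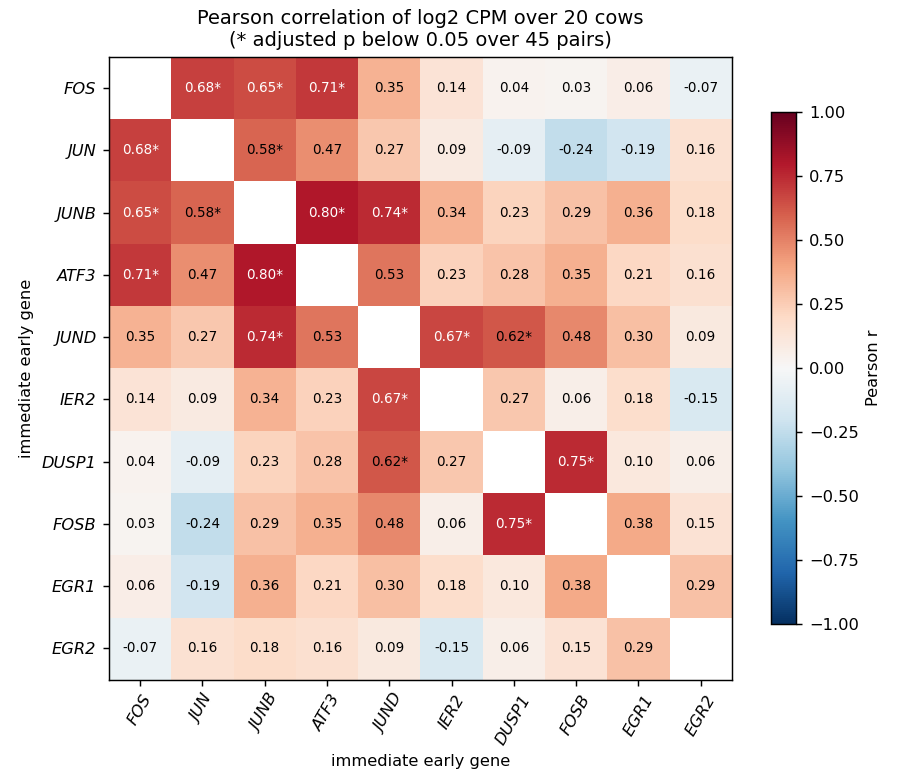
Pearson correlation of log2 CPM over 20 cows for each pair of immediate early genes on both axes, from blue (-1) to red (1), with an asterisk where the p adjusted over 45 pairs was below 0.05. Asterisks mark 5 of the 6 pairs among FOS, JUN, JUNB and ATF3, where JUN with ATF3 (0.47) has none, and the pair of FOSB and DUSP1 (0.75). They also mark JUND with JUNB (0.74), IER2 (0.67) and DUSP1 (0.62), while EGR1 and EGR2 carry no asterisk.

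The genes most like each member over the 20 cows, outside the list itself, were identified by the Pearson correlation of log2 CPM. For DUSP1 these were NADK, which makes NADP from NAD (0.93), CSRP1 (0.91) and TAGLN2 (0.91). For JUND they were CHMP2A, a part of the membrane-remodelling ESCRT machinery (0.90), VAT1 (0.90) and GNAI2, a G protein subunit of chemokine receptors (0.89). JUNB had CYTH4 (0.89), GPAT4 (0.88) and PYCARD, the inflammasome adaptor (0.88). For IER2 they were GET3 (0.89), SMPD4 (0.86) and ALDH16A1 (0.82), and for JUN the endosomal RNA sensor TLR7 (0.87), SLC25A10 (0.85) and RUFY4 (0.85). FOS was closest to TMEM184B (0.85), CCDC69 (0.84) and ACAA1, a peroxisomal enzyme of fatty acid oxidation (0.84). ATF3 was closest to SQSTM1, the autophagy receptor p62 (0.81), UBAP1 (0.81) and the platelet chemokine PF4 (0.81). FOSB had CMTM6 (0.84), MAP3K6 (0.74) and EIF1 (0.73), EGR2 had SDR42E1 (0.75), CALD1 (0.74) and ARHGAP29 (0.74), and EGR1 had CD5L (0.74), REP15 (0.73) and LOC104968753 (0.72). Each value was picked as the highest over all genes tested and shares libraries and scaling with the member, and no p is given for it.

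Marker genes of blood cells and 2 response lists were set beside this co-variation. Each list was summarised by the mean z-score of its genes in each cow, and the 10 members were compared with 9 such scores and with the log2 total count, 100 relations in all. With permutation tests adjusted over the 100 relations, 12 were called, all positive, and all of them involved FOS, JUN, JUNB or ATF3. The share of all genes tested that reach such correlations with these scores was not computed. The 12 relations are therefore not read as particular to immediate early genes. With Spearman's correlation 5 were called, and the other 7 had a rho between 0.57 and 0.62 with adjusted permutation p-values from 0.0515 to 0.0689. The highest was JUNB with the glucocorticoid-response list (FKBP5, TSC22D3, PER1, ZBTB16, DDIT4, IL1R2, SGK1 and CEBPD, with r = 0.80, permutation p = 2e-05, adjusted 0.002, and rho = 0.76, permutation p = 0.00012, adjusted 0.00733). ATF3 followed the same list (r = 0.72, permutation p = 0.00038, adjusted 0.0076; rho = 0.73, permutation p = 0.00043, adjusted 0.0107). FOS followed the heat shock chaperones (r = 0.75, permutation p = 0.00019, adjusted 0.00475; rho = 0.71, permutation p = 0.00083, adjusted 0.0166), and so did JUN (r = 0.63, adjusted permutation p = 0.0300) and ATF3 (r = 0.61, adjusted permutation p = 0.0372). Without the 2 cows with the farthest score, r was 0.72 and 0.65 for the glucocorticoid list with JUNB and ATF3. For heat shock it was 0.64 with FOS, 0.51 with ATF3 and 0.43 with JUN, the last with a permutation p of 0.0731.

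Cell type markers moved with the same genes. The monocyte score had an r of 0.73 with JUNB (permutation p = 0.00011, adjusted 0.00467; rho = 0.74, permutation p = 0.00022, adjusted 0.00733), 0.73 with FOS (permutation p = 0.00014, adjusted 0.00467; rho = 0.74, permutation p = 0.00021, adjusted 0.00733) and 0.67 with JUN (permutation p = 0.00115, adjusted 0.0164; rho = 0.59, permutation p = 0.00768, adjusted 0.0549). Without the cows with the 46 kg and 56 kg calves these were 0.69, 0.64 and 0.42, the last with a permutation p of 0.0842. The neutrophil score had an r of 0.68 with JUNB (adjusted permutation p = 0.0164) and 0.65 with ATF3 (adjusted permutation p = 0.0207), and the platelet score one of 0.67 with ATF3 (adjusted permutation p = 0.0164) and 0.62 with JUNB (adjusted permutation p = 0.0224). The value for ATF3 and platelets was 0.40 without the cows with the 45 kg and 54 kg calves (permutation p = 0.0976). The T cell, B cell, NK cell and erythroid scores and the total count were called with no member. Their correlations lay between -0.46 (T cell score with JUN) and 0.54 (total count with EGR2, permutation p = 0.0135, adjusted 0.0961). For FOSB, DUSP1, IER2, JUND, EGR1 and EGR2 no relation was called, and the largest was that of EGR2 with the platelet score (r = 0.56, permutation p = 0.0097, adjusted 0.0746). Some of these values depended on a few cows. Without the cows with the 46 and 56 kg calves, the r with the monocyte score went from -0.21 to 0.54 for DUSP1 (permutation p = 0.0206), from 0.38 to 0.63 for JUND (permutation p = 0.00511) and from -0.13 to 0.49 for FOSB (permutation p = 0.0369). Without the cows with the 45 and 56 kg calves, the r with the glucocorticoid list went from 0.39 to 0.72 for FOSB (permutation p = 0.00073) and from 0.18 to 0.53 for DUSP1 (permutation p = 0.0250). Without the cows with the 35 and 36 kg calves, the r of ATF3 with the erythroid score went from 0.33 to 0.64 (permutation p = 0.0039). Without the cows with the 30 and 36 kg calves, the r of FOS with the NK cell score went from -0.41 to -0.54 (permutation p = 0.0199). That of EGR1 with the NK cell score was 0.52 with these cows and 0.53 without them (permutation p = 0.0254). These p-values are not adjusted.

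The pairs differed in how far they moved when these scores were removed. With the monocyte score regressed out of every gene, FOS and JUNB had an r of 0.26 (adjusted permutation p = 0.578), JUN and JUNB one of 0.19 (adjusted permutation p = 0.647) and FOS and JUN one of 0.38 (adjusted permutation p = 0.267). JUNB and ATF3, by contrast, still had 0.76 (adjusted permutation p = 0.0018). In all, 6 of the 9 pairs were still called. Another 3 were called in addition, FOSB with JUND (0.57), JUNB with DUSP1 (0.57) and FOSB with JUNB (0.56). Their adjusted permutation p-values were 0.0479, 0.0479 and 0.0489. The permutation of residuals did not allow for the score already fitted, so calls this close to 0.05 are uncertain. JUNB and ATF3 had an r of 0.54 with the glucocorticoid score regressed out, where the pair was no longer called (adjusted permutation p = 0.101). With the neutrophil score regressed out, their r was 0.64 (adjusted permutation p = 0.0209). FOSB and DUSP1 had between 0.73 and 0.76 under every scaling or score removed, and JUNB with JUND and JUND with IER2 were likewise called under all of them. The removal of the monocyte and glucocorticoid scores was chosen after seeing the data.

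**Figure D4:**
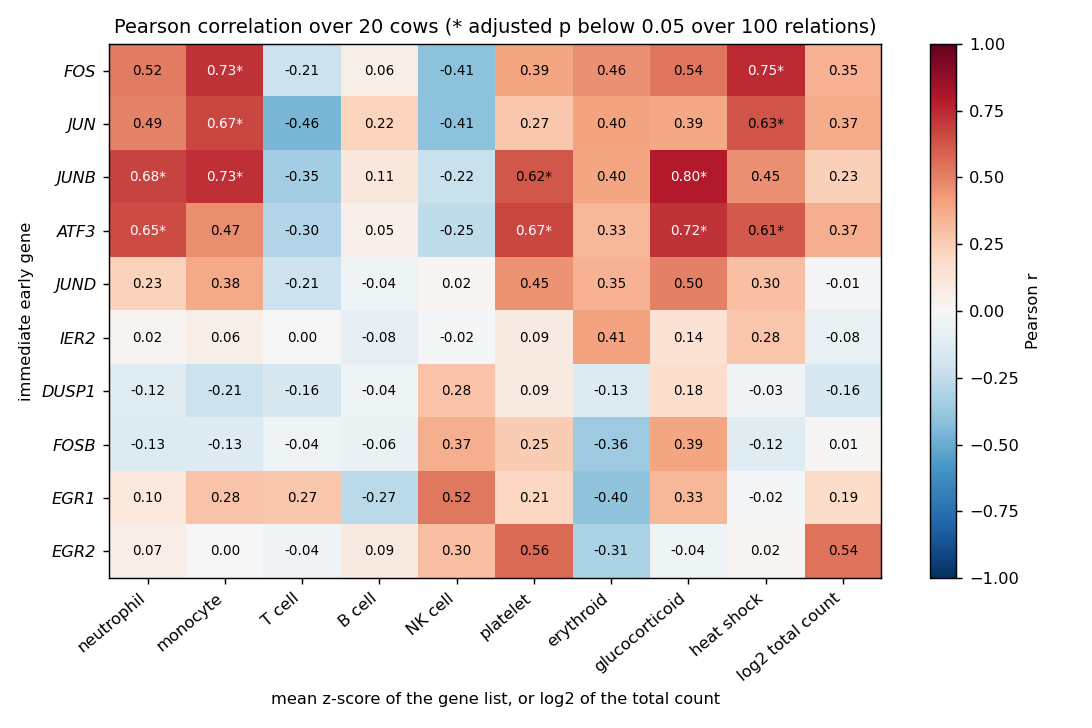
Pearson correlation over 20 cows of each immediate early gene (vertical axis) with the mean z-score of each marker or response list and with the log2 total count (horizontal axis), with an asterisk where the p adjusted over 100 relations was below 0.05. The 12 asterisks lie in the rows of FOS, JUN, JUNB and ATF3.

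Other genes of the same pathways followed the members to different degrees. The list had 74 genes, of which 71 passed the count filter. The mean correlation with the 10 members was positive for 59 of the 71, beside 7886 of all 16206 genes tested. Its median was 0.21, beside -0.0069 over all genes tested, which were not matched for abundance. The median was 0.23 for 12 other AP-1 and leucine zipper genes, 0.23 for 29 feedback genes, 0.16 for 13 other immediate early transcription factors and 0.066 for 17 upstream kinases and factors. The highest were NFKBIA, the inhibitor of NF-kappaB (0.49), IER5 (0.45) and ZFP36, which destabilizes mRNAs with AU-rich elements (0.45). No test was made on these values.

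The study asked whether maternal blood at this day relates to the weight of the calf at birth, so each gene was modelled on calf BW. As in the methods of the study, the cow of the 72.5 kg calf was left out, which gave 19 cows with a calf BW of 43.5 ± 7.97 kg (SD, n = 19). None of the 10 genes had a slope that passed the threshold after adjustment. With edgeR's quasi-likelihood test, 0 of the 10 had an FDR below 0.05, as did 0.0% of the 16206 genes tested, and 1 of the 10, FOSB, had an unadjusted p below 0.05, where 13.9% of all genes did (6.78% with a positive and 7.08% with a negative slope). With DESeq2, 0 of the 10 had an FDR below 0.05, beside 1.22% of all genes, and 2 of the 10, FOSB and EGR2, had an unadjusted p below 0.05, beside 10.7% (5.57% positive and 5.09% negative). The slope was positive for 6 of the 10 genes and negative for 4, beside 7544 positive and 8662 negative over all genes. Its median was 0.0032 log2 units per kg, beside -0.00072 over all genes. With the cow of the 72.5 kg calf included, 4 slopes were positive and the median was -0.0021.

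FOSB had the largest slope. It was 0.026 per kg on the log2 scale (standard error 0.011, unadjusted p = 0.0306, FDR of 0.301 with edgeR), or 1.19-fold per 10 kg with a 95% interval from 1.02 to 1.405, which does not pass the FDR. When single cows were left out in turn, the unadjusted p was below 0.05 in 15 of 19 fits, but not without the cow of the 30, 35, 54 or 56 kg calf, and the slope lay between 0.021 and 0.031. The cow of the 72.5 kg calf had the second lowest FOSB of all, 2.07 CPM, and with it included the slope was 0.0087 (unadjusted p = 0.429 with edgeR). EGR2 had a slope of 0.021 (standard error 0.010, unadjusted p = 0.0543, FDR of 0.374 with edgeR), and an unadjusted p of 0.0378 with DESeq2. DUSP1 had a slope of 0.016 (standard error 0.0085, unadjusted p = 0.0682, FDR of 0.411 with edgeR), and of 0.0088 once the cow highest in DUSP1 (56 kg calf) was left out. For EGR2 and DUSP1 the fold change per 10 kg was 1.16 (95% interval 0.995 to 1.35) and 1.12 (0.989 to 1.27).

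FOS had a slope in the other direction, -0.023 per kg (standard error 0.014, unadjusted p = 0.133, FDR of 0.520 with edgeR), or 0.855-fold per 10 kg with a 95% interval from 0.693 to 1.06. In all 20 cows it was -0.023 with an unadjusted p of 0.0451. With the monocyte score as a covariate the slope of FOS was -0.0099 (unadjusted p = 0.381 with edgeR). With the neutrophil score as a covariate it was -0.021 (unadjusted p = 0.148 with edgeR), and no other score was used so. Over all 20 cows the r of the scores with calf BW ran from -0.47 (erythroid) to 0.28 (NK cell). It was -0.42 for heat shock and -0.25 for monocytes, and these values were not tested. Monocyte content and the level of FOS in each monocyte cannot be told apart here. The remaining 6 genes had slopes between -0.0068 for JUN and 0.0087 for EGR1, with unadjusted p-values of at least 0.236. These ends depended on single cows, since leaving out the cow with the 30 kg calf gave -0.010 for JUN and leaving out that with the 56 kg calf gave -0.0032. For EGR1 the slope was 0.0039 with the 35 kg calf left out and 0.015 with the 56 kg calf left out. JUND and IER2 had the narrowest intervals of the fold change per 10 kg, 0.956 to 1.08 for JUND and 0.914 to 1.02 for IER2 (95%).

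**Figure D5:**
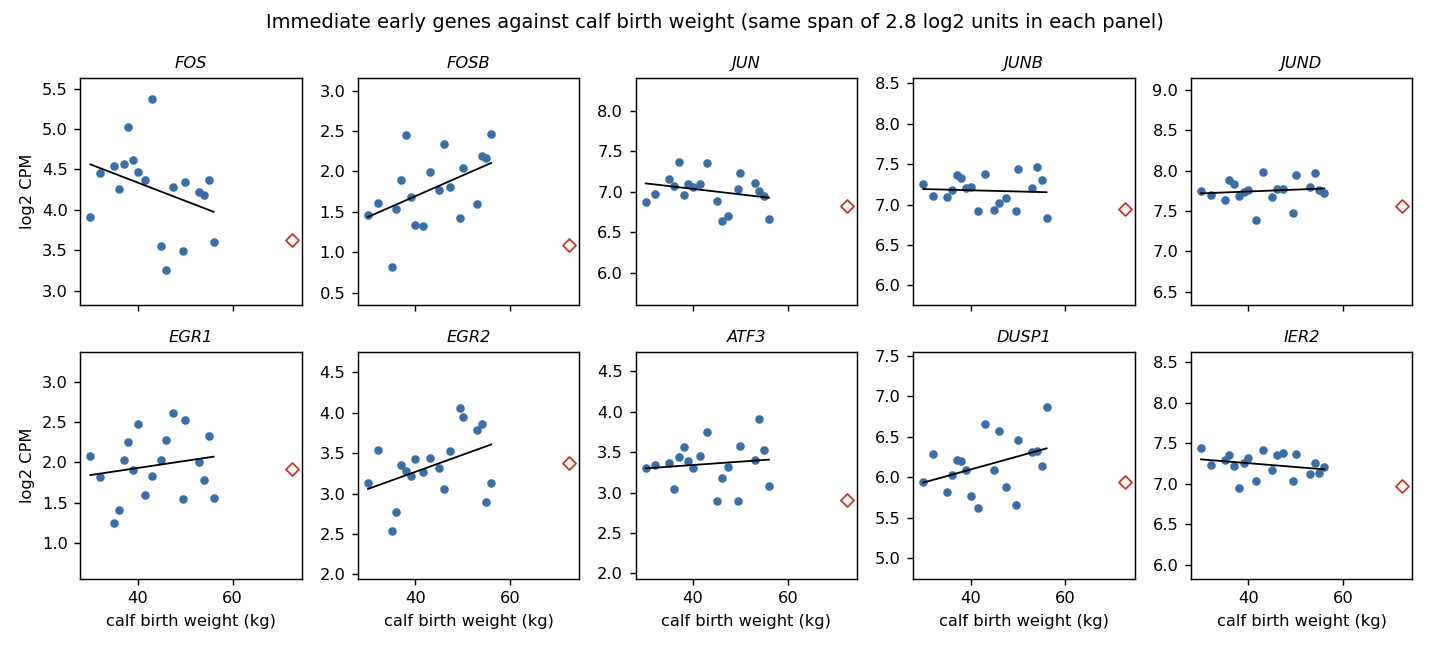
log2 CPM of each immediate early gene (vertical axes, all with the same span) against calf birth weight in kg (horizontal axes), with 1 point per cow and the line of the edgeR slope over 19 cows. The open diamond is the cow of the 72.5 kg calf, which was not in the fit and lies well below the upper end of the line for FOSB.

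Of the 71 other genes of these pathways, the slope on calf BW was above 0 for 35 and below 0 for 36. Over all genes tested it was above 0 for 7544 and below 0 for 8662. The median slope of the 71 genes was -0.00056 per kg. By the same edgeR test, 0 had an FDR below 0.05 and 8 of 71 had an unadjusted p below 0.05 (beside 13.9% of all genes), 6 with a positive slope and 2 with a negative one. DESeq2 gave 1 gene of the list with an FDR below 0.05 (beside 1.22% of all genes), NFIL3, a leucine zipper repressor that NK cells need to develop. NFIL3 was 32.2 CPM in the lowest cow, 46.0 CPM at the median and 81.5 CPM in the highest, which was that of the 46 kg calf. By edgeR its slope was 0.031 per kg with a standard error of 0.0077 and an FDR of 0.111, and between 0.029 and 0.034 when single cows were left out. In all 20 cows it was 0.019, with an FDR of 0.269. The FDR by DESeq2 was 0.0179. Next were DUSP6, a phosphatase specific for ERK kinases, with a slope of 0.020 (FDR of 0.208 with edgeR), and ELK4, a partner of SRF, with 0.012 (FDR of 0.246 with edgeR). The smallest p-values among negative slopes belonged to ZFP36L1 (-0.0094, FDR of 0.345 with edgeR), BATF (-0.0091, FDR of 0.355 with edgeR) and NR4A3 (-0.019, FDR of 0.482 with edgeR). NR4A3 had -0.0085 without the cow of the 30 kg calf. ZFP36L1 had -0.0057 once that of the 56 kg calf was left out and -0.0050 in all 20 cows, where BATF had -0.0060 and DUSP6 0.013.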

How the data were processed

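Whole-blood RNA of 20 cows was measured, 1 library per cow. Trimming with Trimmomatic came first. The authors then mapped reads to the ARS-UCD1.3 bovine assembly with STAR 2.7.0b, counted them per gene with featureCounts (Subread 2.0.3), per the labels and the paper's methods, and deposited raw counts without normalization. The labels name a SMARTer Stranded kit and the paper a Truseq-stranded one. Strand setting and treatment of reads that fit several genes are not given in the sources used here.

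A gene was kept where 5 or more of the 19 cows had 10 or more counts. Names came from an NCBI table of the ARS-UCD2.0 assembly, which held every identifier. edgeR 4.0.16 (R 4.3.3) with TMM and its quasi-likelihood test gave slopes on calf BW, with Benjamini-Hochberg adjustment over all genes. The standard error was taken as the absolute slope divided by the square root of its F statistic. The 95% intervals used a t quantile without edgeR's moderation, so they need not match the p-values exactly. edgeR was tested on simulated data, where it recovered 75.5% of 200 genes given a slope of 0.06 per kg among 16206. That slope is steeper than any of the members (0.026 for FOSB, the largest), so recovery at their slopes was not measured. Of the genes called in the simulation, 2.58% were false with edgeR and 11.9% with DESeq2, above the FDR threshold of 0.05. DESeq2 1.42.0 and limma 3.58.1 with voom were alternatives. Correlations used log2 CPM with a prior count of 2 and two-sided permutation tests of 100000 resamples (Python 3.11.15, numpy 2.4.6). Shared scaling can raise correlations between genes. Counts of a member ranged from 50 to 9064 per cow, and the counting error given does not cover PCR duplication.

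The members and lists were chosen with earlier results of these data known. The p-values treat cows as independent animals. Named genes were the 10 members, the 3 genes most correlated with each, and of the other pathway genes those past the FDR or else the 3 smallest p-values in each direction, with the 3 highest mean correlations. The marker and response lists are given in the report by their scores. Other gestation days were not analysed here.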

Additional observations from a re-analysis of the deposited data

How the results depend on the processing

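No member was called by its slope on calf BW under any of the 12 alternatives or the 19 fits that left out 1 cow. The number with an unadjusted p below 0.05 was 2 in place of 1 with DESeq2, with RLE size factors, without a count filter, with the rank of BW, and with library size or the monocyte score as a covariate. It was 0 (without the cow of the 35 or 54 kg calf) to 3 (without that of the 32 or 55 kg calf) when 1 cow was left out. Slopes that turned in sign were those of JUNB (0.0029 with the monocyte score, and -0.0050 to 0.0025 without 1 cow), JUND (-0.00096 in 20 cows) and ATF3 (-0.0033 in 20 cows, and -0.0023 to 0.0082 without 1 cow). The other pathway genes called were 1 with DESeq2 and 0 in every other fit. The causes were not tested.

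The pairs called were 9, and 6 to 9 under other scalings, Spearman's correlation, 19 cows and removal of the neutrophil score or library size, 7 to 10 without 1 cow, 5 with the glucocorticoid score regressed out, 8 with calf BW and 9 with the monocyte score regressed out (6 of them among the first 9), the last 3 chosen after seeing the data. With the neutrophil score removed, 5 of the 6 pairs called were among the first 9, and FOSB with ATF3 was new. With library size removed, 8 of the 9 were, and JUND with ATF3 was new. JUND with ATF3 was also new without the cow of the 36 or 41.5 kg calf. JUND with DUSP1 was called in 17 and JUN with JUNB in 13 of the 20 sets without 1 cow, and the other 7 pairs in all 20. The relations with scores called were 12, 5 with Spearman's correlation, and 7 (without the cow of the 45 kg calf) to 13 without 1 cow. The mean CPM of each member moved by less than 1 SD under other scalings, in 19 cows or as a median. No paired analysis was possible because the cows form 1 group.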
